A study of Mus musculus with 6 samples.

Results

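The mast cell genes examined in skin were the granule proteases Cpa3, Cma1, Mcpt4 and Tpsb2, the growth factor receptor Kit and its ligand gene Kitl, the IgE receptor genes Fcer1a and Ms4a2, the histamine-synthesis gene Hdc and the peptide receptor gene Mrgprb2. These 10 genes were chosen by name, as genes of mast cell proteases and receptors, and all 10 had a row among the 55291 genes of the count table. These genes and the lists used below were chosen with earlier results of these data known. Counts of them beside shares of all genes are therefore no independent test. RNA was sequenced from dorsal skin of 6-week-old mice, recorded as day 40 in the sample labels, in 3 wild-type samples of strain C57BL/6 and 3 samples of strain B6.Cg-Fbn1Tsk/J, called Tsk here. The labels write the Tsk genotype as Fbn1+/-, although the tight-skin allele is known as an internal duplication of Fbn1, the gene of the microfibril protein fibrillin 1. Sex and littermate status are not given, and nothing in the labels says whether each sample is its own animal, so the spread behind every p-value may be technical. Replicates 1, 2 and 3 are wild type and replicates 4, 5 and 6 are Tsk.

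Mast cells are resident immune cells of the dermis, where they lie near vessels and nerves. They mature under signals from KIT, a receptor tyrosine kinase, whose ligand is made by keratinocytes, fibroblasts and endothelium. Their granules hold proteases, histamine and the proteoglycan serglycin, and are released when antigen binds IgE on the high-affinity receptor or when cationic peptides bind Mrgprb2. Mouse skin mast cells are of the connective tissue type, which carries chymases, tryptase and carboxypeptidase A3.

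In wild-type skin the mast cell proteases were detected at low levels, and in Tsk skin 2 of the 3 libraries held more of them. The summed counts of Cpa3, Cma1, Mcpt4 and Tpsb2 were 77, 89 and 108 in the wild-type libraries and 126, 316 and 376 in Tsk replicates 4, 5 and 6. As CPM, that is, counts scaled to a common library total after TMM adjustment, the sum was 4.28, 5.77 and 6.71 in wild type and 6.53, 14.8 and 17.7 in Tsk. Replicate 4 thus lay within the wild-type range, and replicates 5 and 6 lay above it. None of the 8 members that passed the filter on low counts was called changed at an edgeR adjusted p under 0.05, where 3.42% of all 19971 genes tested were called, 2.72% higher and 0.696% lower in Tsk. At an unadjusted edgeR p under 0.05, 5 of the 8 members were higher (Cpa3, Cma1, Mcpt4, Tpsb2 and Kit) and none lower, whereas 20.1% of all genes passed that level in either direction and 12.1% were higher. DESeq2 called 2 members, Mcpt4 and Kit, and 8.61% of all genes with an adjusted p, and limma-voom called 0 members and 2.73% of all genes. The log2 fold change was above 0 in 7 of the 8 tested members and in 47% of all genes, with medians of 1.02 and -0.03.

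**Figure D1:**
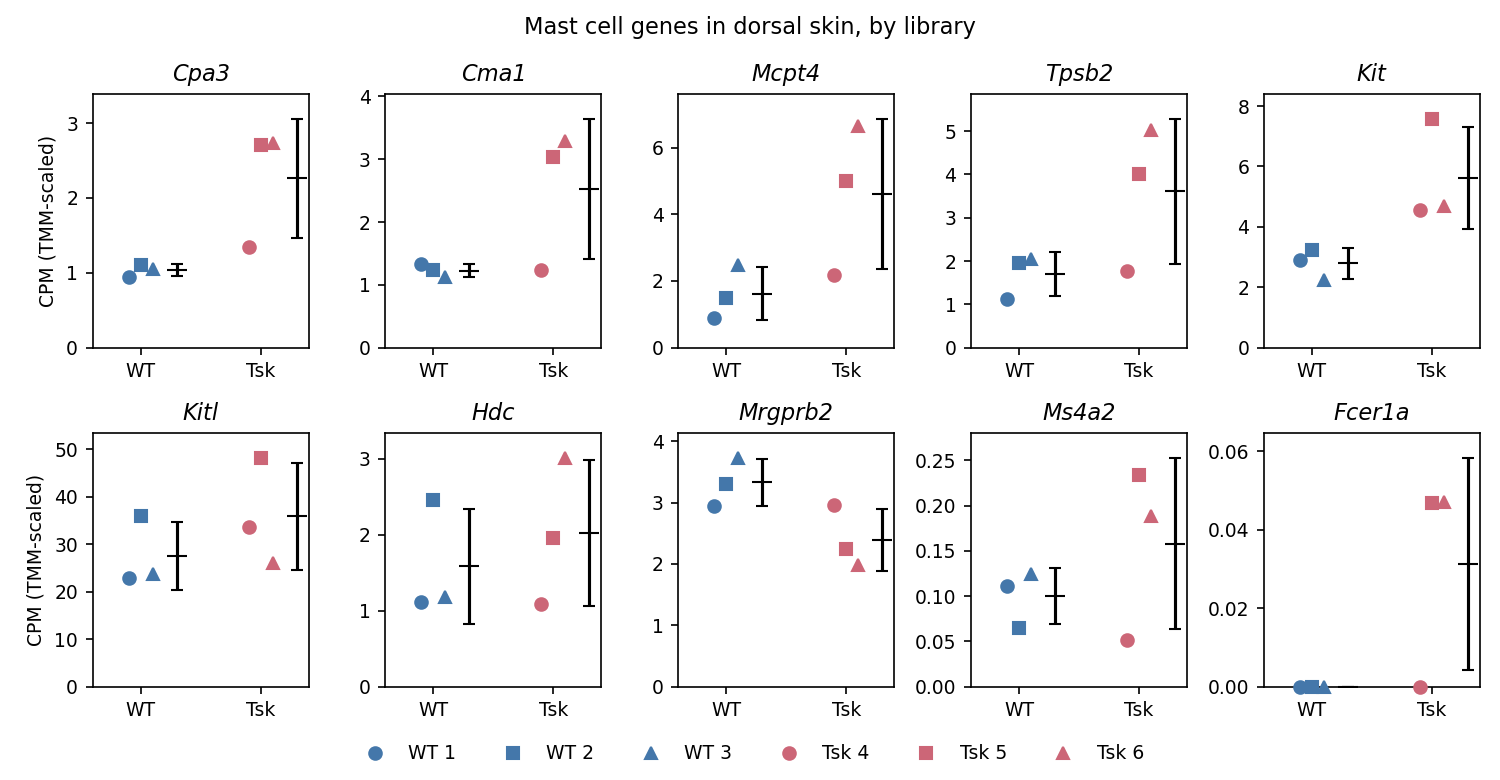
Levels of the 10 mast cell genes as TMM-scaled CPM (y axis, from 0, a separate scale per gene) in 3 wild-type (WT, blue) and 3 Tsk (red) libraries, with 1 symbol per library and black bars for the mean and SD (n = 3). In the 4 proteases Tsk replicate 4 (red circle) sits near the wild-type libraries, while replicates 5 and 6 sit above them.

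Fbn1, the gene that carries the Tsk allele, separated the groups in all libraries, Tsk replicate 4 included. It stood at 1450, 2053 and 1781 CPM in Tsk replicates 4, 5 and 6 and at 260.6 to 351 CPM in wild type, and rose by 2.54 ± 0.24 on the log2 scale (SE, edgeR adjusted p = 0.00401). Library totals ran from 17561271 to 19219622 counts. Without Tsk replicate 4, the edgeR adjusted p of Cpa3 was 0.0482 and that of Cma1 0.0464, and these 2 members were called. That fit called 528 of 20518 genes, 437 of them higher in Tsk, and left out the Tsk library with the lowest protease sum. Each of the other 5 fits that left out 1 library called 0 members, and they called 63 to 1381 genes in all. In whole skin, more mast cells, more RNA per mast cell and a shift in the makeup of the tissue cannot be told apart.

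The sequences upstream of the transcription starts are shown for 3 proteases, which were highest in the same 2 Tsk libraries, and for Mrgprb2, which was lowest in those 2. Each line gives the 250 bases before the RefSeq start on GRCm38.p6 (the mm10 build), read 5′ to 3′ on the gene's strand. Capitals mark GATAA on either strand (TTATC when read on the opposite one), the core letters of the site that GATA transcription factors bind. GATA2 is a factor that mast cells need.
Cpa3 (chr3:20242182-20242431, minus strand): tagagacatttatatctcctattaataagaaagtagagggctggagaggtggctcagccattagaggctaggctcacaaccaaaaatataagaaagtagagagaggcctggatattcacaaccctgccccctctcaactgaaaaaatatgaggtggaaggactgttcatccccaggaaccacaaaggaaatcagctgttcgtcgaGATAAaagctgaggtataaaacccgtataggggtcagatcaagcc
Cma1 (chr14:55944676-55944925, minus strand): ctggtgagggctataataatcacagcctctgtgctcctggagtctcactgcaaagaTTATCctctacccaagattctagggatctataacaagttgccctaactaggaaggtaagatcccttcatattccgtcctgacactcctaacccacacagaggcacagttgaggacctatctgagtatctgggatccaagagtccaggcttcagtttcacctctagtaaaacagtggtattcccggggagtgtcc
Mcpt4 (chr14:56062311-56062560, minus strand): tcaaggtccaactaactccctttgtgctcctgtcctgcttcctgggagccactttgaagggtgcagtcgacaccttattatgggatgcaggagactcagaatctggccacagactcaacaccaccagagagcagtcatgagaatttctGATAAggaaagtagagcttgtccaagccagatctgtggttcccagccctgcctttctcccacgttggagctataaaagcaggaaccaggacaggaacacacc
Mrgprb2 (chr7:48558087-48558336, minus strand): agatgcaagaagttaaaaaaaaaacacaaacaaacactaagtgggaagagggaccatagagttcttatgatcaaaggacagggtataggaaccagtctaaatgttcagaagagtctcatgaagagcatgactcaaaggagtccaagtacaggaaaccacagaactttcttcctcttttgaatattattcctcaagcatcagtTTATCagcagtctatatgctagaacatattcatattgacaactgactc
Each of these windows held 1 match, at position -45 from the start in Cpa3, at -194 in Cma1, at -102 in Mcpt4 and at -48 in Mrgprb2. Of the 9 members with a promoter entry, 6 held GATAA on either strand (Cpa3, Cma1, Mcpt4, Mrgprb2, Fcer1a and Ms4a2), and Kit, Kitl and Hdc held 0 matches. Counted as windows, 6 of 10 from members held it, beside 22.6% of all 32851 windows of the same length. The windows were not matched for base composition. The letters CACATG, an E-box that the factor MITF can bind, were in 1 of the 10 member windows, that of Fcer1a, and in 12.3% of all windows. A match is a string of letters, and no binding was measured.

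Cpa3 encodes carboxypeptidase A3, a granule enzyme that removes C-terminal residues from peptides, and maps to the minus strand of chromosome 3 (20215620 to 20242181). Every wild-type library held 17 counts, and the Tsk libraries held 26, 58 and 58. The groups did not overlap, at 0.946 to 1.10 CPM in wild type and 1.35 to 2.73 CPM in Tsk, and 2 of the 8 tested members (Cpa3 and Kit) lay apart with Tsk higher, beside 14.1% of all genes with Tsk higher, 10.6% with Tsk lower and 24.7% in either direction. The means were 1.03 ± 0.0800 and 2.26 ± 0.793 CPM (SD, n = 3 each). Cpa3 stood 1.13 ± 0.33 higher on the log2 scale and did not pass (SE, edgeR adjusted p = 0.104).

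Cma1 and Mcpt4 encode chymases, serine proteases that cut after aromatic residues, and lie in the chromosome 14 protease cluster. Wild-type counts of Cma1 (55941451 to 55944675, minus strand) were 24, 19 and 18, and Tsk counts were 24, 65 and 70. The means were 1.23 ± 0.109 and 2.53 ± 1.12 CPM (SD, n = 3 each), and Tsk replicate 4 at 1.24 CPM fell among the wild-type values. Cma1 stood 1.04 ± 0.38 higher on the log2 scale (SE, edgeR adjusted p = 0.172). Mcpt4 (56059629 to 56062313, minus strand) held 16, 23 and 40 wild-type counts and 42, 107 and 141 Tsk counts. It averaged 1.62 ± 0.805 and 4.60 ± 2.26 CPM, and replicate 4 at 2.18 CPM again lay below the highest wild-type library at 2.48 CPM. The log2 fold change of Mcpt4, at 1.51 ± 0.47, was the highest among the members and did not pass (SE, edgeR adjusted p = 0.123).

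Between Cma1 and Gzmb, over 320.8 kb, the chromosome 14 cluster holds 15 protein-coding genes. In 8 of them all 6 libraries had 0 counts, 3 had between 1 and 10 counts over all libraries, and 4 had more than 10 (Cma1, Mcpt4, Gzmc and Gzmb). Mcpt1 and Mcpt2, proteases of mucosal mast cells, had 3 and 0 counts in all libraries together. Mcpt8, a basophil protease, and Ctsg, the cathepsin G gene, had 0. The counts of the cluster therefore came mainly from 2 genes, with 220 for Cma1 and 369 for Mcpt4. The transcripts of Mcpt4 and Cma1 share no run of 50 bases, and Mcpt4 and Mcpt9, which had 7 counts in all, share a longest run of 56 bases.

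Tpsb2 encodes a tryptase, a serine protease that cuts after basic residues and is held in granules by heparin, and maps to the plus strand of chromosome 17 (25366305 to 25369098). Its counts were 20, 30 and 33 in the wild-type libraries and 34, 86 and 107 in the Tsk libraries. Tsk replicate 4, at 1.76 CPM, lay within the wild-type range of 1.11 to 2.05 CPM, and the other two Tsk libraries stood at 4.02 and 5.04 CPM. Tpsb2 stood 1.09 ± 0.41 higher on the log2 scale (SE, edgeR adjusted p = 0.182). The neighbouring tryptase genes Tpsab1 and Tpsg1 had 6 and 16 counts over all libraries and were not tested. The longest run shared by transcripts of Tpsb2 and Tpsab1 was 39 bases, and with their counts summed the difference was 1.09 ± 0.39 (SE, edgeR adjusted p = 0.17).

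The makeup of the summed counts of the 4 proteases was compared between the groups. Cpa3 took 19.0 ± 3.17% in wild type and 18.1 ± 2.61% in Tsk, and Tpsb2 took 30.1 ± 3.89% and 27.6 ± 0.792% (SD, n = 3 each). Mcpt4 took 27.9 ± 8.32% and 34.9 ± 2.27%, and Cma1 took 23.1 ± 7.40% and 19.4 ± 1.03%. Each difference was smaller than the wild-type SD, and no test was run on these shares.

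Kit, the receptor on which mast cells depend, lay above the wild-type range in each of the 3 Tsk libraries. Its counts were 52, 50 and 36 in wild type and 88, 162 and 100 in Tsk, on chromosome 5 from 75574916 to 75656722. The means were 2.79 ± 0.510 and 5.61 ± 1.70 CPM (SD, n = 3 each). Kit stood 1.01 ± 0.27 higher on the log2 scale and did not pass (SE, edgeR adjusted p = 0.0773). Kit had the smallest adjusted p of the 8 tested members. Its order across the Tsk libraries differed from that of the proteases, since replicate 5 was highest and replicates 4 and 6 lay close together at 4.56 and 4.71 CPM.

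Kit is also a receptor of melanocytes, the pigment cells of hair follicles, and the summed melanocyte markers also lay above the wild-type range in each Tsk library. None of the 9 markers was at 0 in all libraries, and they summed to 23.4 to 24.4 CPM in wild type and to 32.0, 47.3 and 60.3 CPM in Tsk replicates 4, 5 and 6. Ednrb, an endothelin receptor that endothelium also carries, made up 49.2 to 73.6% of that sum. The other 8 markers summed to 8.81 to 12.2 CPM in wild type and to 14.2, 20.4 and 15.95 CPM in Tsk, so without Ednrb the groups also did not overlap and replicate 5 was the highest, as for Kit. None of the 6 tested markers passed in edgeR, 4 were higher at an unadjusted p under 0.05 (12.1% of all genes were), and their median log2 fold change was 0.98. DESeq2 called Dct and Ednrb, beside 8.61% of all genes with an adjusted p. By limma-voom 0 of the 6 were called, beside 2.73% of all genes. Of the 6 tested markers, 5 had a log2 fold change above 0. Tyr did not, with means of 1.48 and 1.38 CPM in wild type and Tsk, at -0.10 ± 0.27 (SE, edgeR adjusted p = 0.88). Dct, a melanin-synthesis enzyme, stood at 3.17 to 4.51 CPM in wild type and 5.81 to 9.35 CPM in Tsk, at 0.98 ± 0.24 (SE, edgeR adjusted p = 0.0644). Ednrb stood at 1.09 ± 0.30 (SE, edgeR adjusted p = 0.0907), and at 0.68 without Tsk replicate 6. The part of melanocytes in the Kit result was not tested.

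Kitl, which encodes the ligand of KIT (stem cell factor), was the most abundant member and overlapped between the groups. Its counts were 413, 554 and 383 in wild type and 648, 1031 and 553 in Tsk, on chromosome 10 from 100015630 to 100100416. The means were 27.6 ± 7.23 and 35.9 ± 11.3 CPM, and on the log2 scale Tsk stood 0.38 ± 0.25 higher (SE, edgeR adjusted p = 0.446). That value was 0.11 without Tsk replicate 5, 0.63 without wild-type replicate 2 and 0.68 with a skeletal muscle score as a covariate.

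Of the IgE receptor, the ligand-binding alpha chain and the beta chain were at or near the limit of detection. Fcer1a, the alpha chain gene on chromosome 1 from 173221284 to 173227214, had 0 counts in all wild-type libraries and 0, 1 and 1 in Tsk. A count of 0 allows up to 3 counts, or 0.167 to 0.194 CPM per wild-type library, so a difference in Fcer1a was not detectable at this depth. Ms4a2, the beta chain gene on chromosome 19 from 11615523 to 11623719, held 2, 1 and 2 counts in the wild-type libraries and 1, 5 and 4 in the Tsk libraries. These 2 members did not pass the filter on low counts and have no fold change. Such limits cover counting error alone, because no molecular identifiers are described that would separate molecules from PCR copies.

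Hdc encodes histidine decarboxylase, the enzyme that makes histamine, and its groups overlapped. Its libraries held 20, 38 and 19 (wild type) and 21, 42 and 64 (Tsk) counts, at 1.59 ± 0.760 and 2.02 ± 0.963 CPM (SD, n = 3 each). On the log2 scale the difference was 0.37 ± 0.44 (SE, edgeR adjusted p = 0.701), and it was -0.036 without Tsk replicate 6, 0.66 without Tsk replicate 4, 0.18 without wild-type replicate 1, 0.83 without wild-type replicate 2, 0.21 without wild-type replicate 3 and 0.75 with the muscle covariate. Hdc lies on chromosome 2 from 126593667 to 126619299, at a distance of 1085674 bases from Fbn1. How much strain-derived sequence flanks the Tsk allele is not given in the sources used here.

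Mrgprb2 encodes a receptor of connective tissue mast cells for cationic peptides, and was the tested member with a negative fold change. Its counts were 53, 51 and 60 in wild type and 57, 48 and 42 in Tsk, on chromosome 7 from 48550965 to 48558086. In CPM the wild-type libraries stood at 2.95, 3.30 and 3.73 and the Tsk libraries at 2.95, 2.24 and 1.98. Replicate 4 again lay with the wild-type libraries, and replicates 5 and 6, which held the most protease counts, held the least Mrgprb2. Its log2 fold change was -0.48 ± 0.23 and did not pass (SE, edgeR adjusted p = 0.303), and it was -0.31 with the muscle covariate. The difference between its change and that of the proteases was not tested. Its paralog Mrgprb1, named after its values were seen, had wild-type counts of 9, 15 and 13 and Tsk counts of 19, 32 and 34, at 0.85 ± 0.36 (SE, edgeR adjusted p = 0.23).

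**Figure D2:**
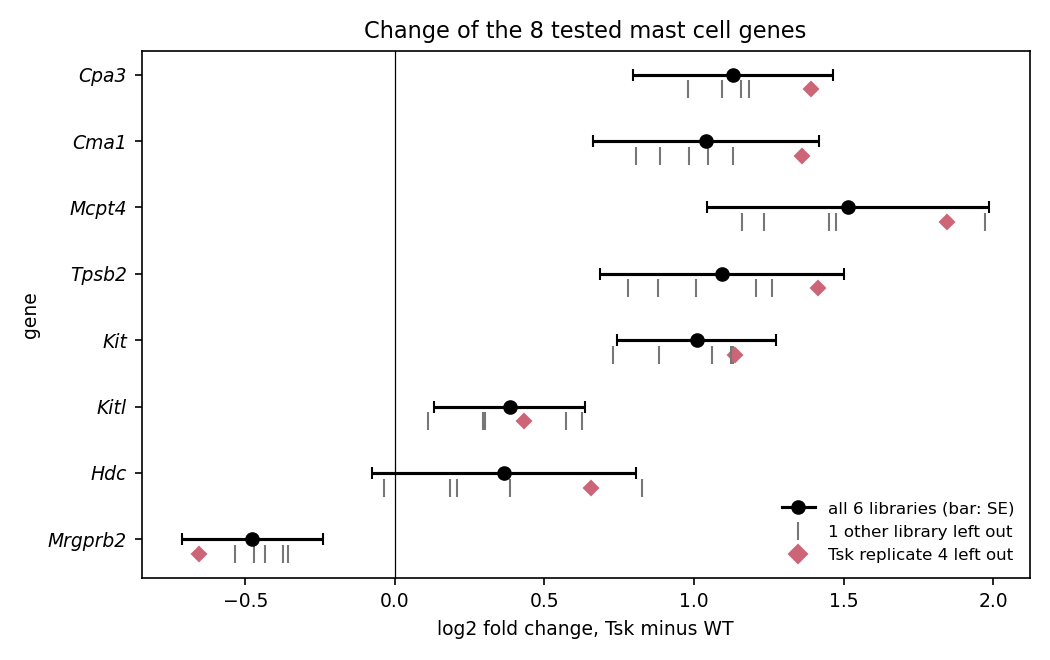
Log2 fold change of the 8 tested mast cell genes, Tsk minus wild type (x axis), with black points and bars for the edgeR estimate and its SE over 6 libraries, grey ticks for fits without 1 other library and red diamonds for the fit without Tsk replicate 4. The proteases and Kit lie near 1 to 1.5, Kitl and Hdc lie near 0.4, and Mrgprb2 lies below 0.

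Per kilobase of annotated exon, Kitl was the highest member in wild type at 4.66 ± 1.22 CPM per kb (SD, n = 3), and its range did not overlap that of the next gene. Mrgprb2 (1.60 ± 0.188), Mcpt4 (1.46 ± 0.727), Cma1 (1.13 ± 0.0997), Tpsb2 (1.07 ± 0.322) and Cpa3 (0.682 ± 0.0527) followed, and each overlapped its neighbour in this order. Kit (0.313 ± 0.0572) and Hdc (0.248 ± 0.119) overlapped each other and lay below Cpa3. Ms4a2 (0.0356 ± 0.0111) and Fcer1a (0 counts) came last. In Tsk, Mcpt4 stood second at 4.16 ± 2.04 CPM per kb, followed by Cma1 at 2.32 ± 1.02 and Tpsb2 at 2.26 ± 1.05, while Cpa3 stood at 1.49 ± 0.522 and Mrgprb2 at 1.15 ± 0.243. The Tsk ranges of Cpa3 (0.888 to 1.80) and Mrgprb2 (0.952 to 1.42) overlapped, as did those of Mcpt4, Cma1 and Tpsb2. Exon lengths came from GENCODE M21, and whether reads in introns were counted is not given in the sources used here.

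Across the 6 libraries, the log2 CPM of Cpa3 was closest to those of Pdxk, Phlpp2, Kctd7, Mocs1, Ccdc8 and Tmc5, with Pearson's r of 0.985 to 0.996 among 17749 genes with a mean log2 CPM of at least 0. The other proteases also ranked high, with Cma1 at rank 64 (r = 0.960), Tpsb2 at rank 193 (r = 0.938) and Mcpt4 at rank 306 (r = 0.923). Kit ranked 1002 (r = 0.847), Hdc 3004 (r = 0.640) and Kitl 4426 (r = 0.481), and Mrgprb2 ranked 17543 (r = -0.910). The points share the group difference, and Tsk replicates 5 and 6 stood apart from the other 4 libraries. Without those 2 libraries r was -0.19 for Cma1, 0.51 for Tpsb2, 0.64 for Mcpt4 and -0.21 for Mrgprb2. It was 0.78 for Kit, 0.72 for Kitl and -0.05 for Hdc, and ran from 0.78 (Mocs1) to 0.96 (Pdxk) in the closest genes. Cpa3 held 17 counts in each wild-type library, so its wild-type values differ through scaling alone. The r values over 4 libraries therefore cannot rank likeness, and the order over 6 libraries leans on Tsk replicates 5 and 6.

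Other genes of mast cell biology were taken from 6 lists with 66 entries, of which 48 were tested, 3 were called higher and 0 lower in Tsk by edgeR, where 2.72% of all genes were called higher. At an unadjusted edgeR p under 0.05, 18 of the 48 were higher, beside 12.1% of all genes. The 3 called genes are not specific to mast cells. Ltc4s, the synthase of leukotriene C4 in mast cells, eosinophils and macrophages, rose from 1.92 ± 0.373 to 8.17 ± 2.30 CPM, with wild-type counts of 42, 28 and 26 and Tsk counts of 109, 186 and 216. Its log2 fold change was 2.08 ± 0.27 (SE, edgeR adjusted p = 0.00994). Without wild-type replicate 3 its edgeR adjusted p was 0.0579, and with the muscle covariate it was 0.0818. Cxcl12, a chemokine of stromal cells whose receptor mast cell precursors carry, rose by 0.99 ± 0.14, from 53.2 ± 2.39 to 105 ± 16.7 CPM (SE for the fold change, edgeR adjusted p = 0.0134), and had an adjusted p of 0.0765 without wild-type replicate 3 and of 0.0551 with that covariate. Dpp4, a surface peptidase also carried by fascial fibroblasts and T cells, had wild-type counts of 123, 134 and 115 and Tsk counts of 567, 823 and 1025 and rose by 2.36 ± 0.20 on the log2 scale (SE, edgeR adjusted p = 0.00278).

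The list of granule proteases and proteoglycan had 4 of 11 members tested (Srgn, Ndst2, Ctsc and Dpp4), with Dpp4 called and a median log2 fold change of 0.50. Tpsab1, Tpsg1, Mcpt1, Mcpt2, Mcpt9, Ctsg and Gzmb were not tested, so that call and median do not speak for these proteases. Srgn, the serglycin gene that many leukocytes and endothelium also express, had wild-type counts of 102, 76 and 56 and Tsk counts of 120, 169 and 140 and stood at 0.55 ± 0.22 (SE, edgeR adjusted p = 0.205). By edgeR, DESeq2 and limma-voom alike, the mast cell receptor list had 0 of 10 tested members called and the receptor signalling list 0 of 11, with edgeR medians of 0.45 and 0.34. At an unadjusted edgeR p under 0.05 these lists had 3 and 4 members higher, beside 12.1% of all genes. In the receptor list 7 of the 10 tested members had a log2 fold change above 0. Cd63 (-0.23), Il1rl1 (-0.30) and Cd200r3 (-0.48) lay below 0. Adora3, an adenosine receptor of mast cells, held 26, 28 and 44 counts in the wild-type libraries and 63, 66 and 75 in the Tsk libraries. It stood at 0.72 ± 0.27 (SE, edgeR adjusted p = 0.18), with groups that did not overlap, as in 14.1% of all genes with Tsk higher. Adora3 was called by limma-trend (adjusted p = 0.0436 and 0.0475 at pseudocounts of 1 and 0.1). At those settings limma-trend called 1871 and 1860 of all 19971 genes, 1771 and 1761 of them higher in Tsk. It used CPM without TMM adjustment, which moved the median of all genes up by 0.26 and 0.28 (log2).

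Among amine and lipid mediator genes, 1 of 10 tested members was called (Ltc4s), and the median was 0.62. Alox5, the lipoxygenase that starts leukotriene synthesis, stood at 1.10 ± 0.26 (SE, edgeR adjusted p = 0.0569), from 4.09 ± 0.658 to 8.75 ± 2.81 CPM, and DESeq2 called it (adjusted p = 0.00357). Slc18a2, the vesicular monoamine transporter that loads histamine and serotonin into granules, held 2, 1 and 1 counts in the wild-type libraries and 1, 17 and 19 in Tsk replicates 4, 5 and 6. Replicates 5 and 6 were again the high libraries. Slc18a2 did not pass the filter on low counts and was not tested. The transcription factor list had 0 of 7 tested members called by edgeR, DESeq2 or limma-voom and a median of 0.23. At an unadjusted edgeR p under 0.05, 2 of the 7 were higher, beside 12.1% of all genes. Gata2 stood at 0.49 ± 0.36 (SE, edgeR adjusted p = 0.505), at 0.19 without wild-type replicate 1 or without Tsk replicate 5, at 0.77 without wild-type replicate 2 and at 1.27 with the muscle covariate. The growth and recruitment factor list had 1 of 6 tested members called (Cxcl12) and a median of 0.24, and Il3, Il9 and Il13, cytokine genes, had 0 counts in every library. Srgn, Adora3, Alox5 and Slc18a2 were named after their values were seen, and each had a higher mean in Tsk. The rule for naming genes took Gata2 from the basophil list, not from the transcription factor list. From the latter it took Bhlhe40 and Runx1, at log2 fold changes of -0.28 ± 0.15 and 0.07 ± 0.38 (SE, edgeR adjusted p = 0.342 and 0.948).

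Markers of other cell types were read in the same libraries. Basophil markers summed to 19.8 to 24.1 CPM in wild type and 19.8 to 21.3 CPM in Tsk, of which Itga2, an integrin gene that other skin cells also express, made up 62.2 to 85.5%. The other 5 basophil markers summed to 3.51 to 6.67 CPM in wild type and 4.98 to 7.71 CPM in Tsk, and Mcpt8 had 0 counts in every library. Most of that sum came from Gata2 (wild-type and Tsk means of 3.56 and 4.96 CPM) and Cd200r3 (1.62 and 1.15 CPM). Gata2, Cd200r3 and Il4 are also on the mast cell lists. Prss34 had counts of 0, 1 and 3 in wild type and 0, 0 and 1 in Tsk. None of the 3 tested basophil markers was called by edgeR, DESeq2 or limma-voom. Of the 3, 0 had an unadjusted edgeR p under 0.05, beside 20.1% of all genes in either direction. Of eosinophil markers Epx had 0 counts, and Ear2, which macrophages also express, was the 1 tested gene of 5, with wild-type counts of 15, 3 and 8 and Tsk counts of 40, 49 and 45. Ear2 rose by 2.04 ± 0.41 (SE, edgeR adjusted p = 0.0331), but had an adjusted p of 0.0638 to 0.142 in the 5 fits that left out any 1 library other than wild-type replicate 1 and of 0.169 with the muscle covariate. Macrophage markers summed to 261 to 342 CPM in wild type and to 383, 502 and 988 CPM in Tsk replicates 4, 5 and 6, the same order as the proteases. Of the 8 macrophage markers, 0 were called by edgeR or limma-voom. DESeq2 called 3 (Cd163, Csf1r and Mrc1), beside 8.61% of all genes with an adjusted p. At an unadjusted edgeR p under 0.05, 6 of the 8 were higher, beside 12.1% of all genes. Mrc1, the mannose receptor, stood at 1.16 ± 0.35 (SE, edgeR adjusted p = 0.115), and Lyz2, the lysozyme gene of myeloid cells, at 0.84 ± 0.34 (SE, edgeR adjusted p = 0.219). Without Tsk replicate 6 these values were 0.61 for Mrc1 and 0.44 for Lyz2, and with the muscle covariate Lyz2 stood at 0.30. Leukocyte-wide markers overlapped between the groups, with 43.6 to 107 CPM in wild type. In Tsk replicates 4, 5 and 6 they stood at 75.1, 85.0 and 131 CPM, the same order as the proteases.

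Marker sums of other tissues and cells were read alongside. Adipocyte markers summed to 252 to 330 CPM in wild type and to 708, 2783 and 511 CPM in Tsk replicates 4, 5 and 6, so replicate 5 was the high library there. Skeletal muscle markers took 14.1 to 20.3% of counts in wild type and 12.3 to 13.8% in Tsk. T cell markers summed to 11.2 to 14.8 and 14.7 to 18.5 CPM, and neutrophil markers to 3.95 to 6.45 and 1.56 to 3.95 CPM. Sums of fibroblast and endothelial markers did not overlap between the groups, at 6219 to 10922 against 18379 to 42116 CPM and at 153 to 199 against 241 to 375 CPM. Keratinocyte markers overlapped, at 3511 to 5489 and 2889 to 5496 CPM. The part of these shifts in the mast cell results was not tested beyond the fit with the muscle covariate. In that fit edgeR called 0 members and only 75 of all 19971 genes. The log2 fold change of Cpa3 was 1.12 ± 0.49 there (SE, edgeR adjusted p = 0.356), beside 1.13 ± 0.33 without the covariate. With it Cma1 stood at 0.81, Mcpt4 at 1.86, Tpsb2 at 1.39 and Kit at 1.01.

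**Figure D3:**
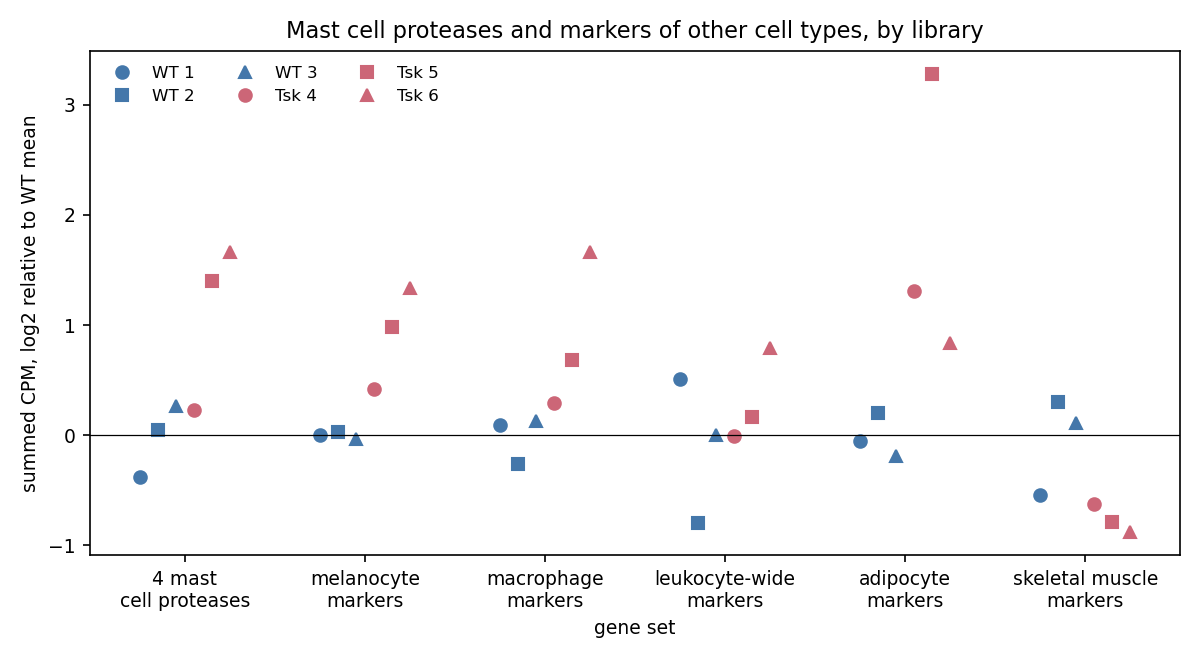
Summed CPM of the 4 mast cell proteases and of marker lists of 5 other cell types (x axis), as log2 relative to the wild-type mean (y axis), with 1 symbol per library, blue for wild type and red for Tsk. The proteases, macrophage markers and melanocyte markers, the last through Ednrb, are highest in Tsk replicate 6 and next highest in replicate 5. Adipocyte markers peak in replicate 5. Leukocyte-wide markers are also highest in Tsk replicate 6, and both they and the proteases overlap between groups.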

How the data were processed

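Per the submitters' processing notes, bcl2fastq 2.19.1.403, STAR and Partek 7.0 were used with the mm10 build. The sources used here do not name the counting rule, strand setting or gene models. Per the labels' protocols, libraries came from rRNA-depleted total RNA with a stranded kit. The authors deposited estimated counts per gene. In each library 34.8 to 37.3% of the values were fractional, and all were rounded before testing. The authors' CPM values lay within 0.312% of counts scaled to the library total (genes with at least 10 counts). The authors' TMM-normalised signal and TPM values were deposited too and served only as checks.

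Groups came from sample titles. Counts were tested with edgeR 4.0.16 (R 4.3.3; quasi-likelihood F-test, robust dispersion, TMM, default expression filter with minimum count 10 and minimum total 15), with Benjamini-Hochberg adjustment over all 19971 genes; SE is the log2 fold change over the square root of F. DESeq2 1.42.0, limma 3.58.1 (voom, and trend on log2 of the deposited CPM plus 1 or 0.1), other scalings and filters, a skeletal muscle covariate and leaving out each library were alternatives. Replicates of a group differed by more than sampling noise (smallest chi-square per degree of freedom 8.85).

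Members and lists were chosen with earlier results of these data known. Genes outside the members were named if called in their list, or if among the 2 most abundant where none was called; some genes this rule takes are given only in list counts. All 157 listed symbols matched a row. Promoter sequences are from RefSeq (GRCm38.p6), and positions are from GENCODE M21.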

Additional observations from a re-analysis of the deposited data

How the results depend on the processing

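The number of members called, 0 with all 6 libraries, was 3 with library totals alone as the scaling and 3 with limma-trend on either pseudocount (Cpa3, Mcpt4 and Kit each time), 1 with no filter on low counts (Kit), 2 with DESeq2 (Mcpt4 and Kit) and 0 to 2 when 1 library was left out; all these calls were higher in Tsk. It was 0 with RLE factors, upper-quartile factors, the stricter filter, limma-voom, non-robust dispersion, unrounded counts and the muscle covariate. Library totals alone moved the median of all genes up by 0.27 (log2), so folds under it are relative to that shift, and the limma-trend values carry the same kind of shift. With library totals alone Mrgprb2 was -0.20, and Kitl and Hdc were each 0.68. Cpa3, Cma1, Mcpt4, Tpsb2, Kit and Kitl stayed above 0 and Mrgprb2 below 0 under every alternative, and Hdc ran from -0.036 (without Tsk replicate 6) to 0.83 (without wild-type replicate 2). Over all alternatives Cpa3 ran from 0.82 to 1.42, Mcpt4 from 1.16 to 1.97, Kit from 0.73 to 1.29 and Mrgprb2 from -0.65 to -0.15.

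All genes called, 683 (544 higher, 139 lower), became 1791 (1695 higher, 96 lower) with library totals alone, 1871 (1771 higher) and 1860 (1761 higher) with limma-trend at pseudocounts of 1 and 0.1, 1157 (844 higher, 313 lower) with no filter, 1586 (1142 higher, 444 lower) with DESeq2 and 75 (48 higher, 27 lower) with the muscle covariate. With 1 library left out they ran from 63 (without wild-type replicate 3) to 1381 (without wild-type replicate 1), with 47 to 763 higher and 16 to 618 lower. The cause of these moves was not tested. No paired analysis was possible because the groups share no replicate numbers. At this depth Fcer1a, Ms4a2, Slc18a2 and Tpsab1 did not pass the default filter on low counts, and why their counts were low was not tested. With no filter all 10 members were fitted, and Fcer1a and Ms4a2 were not called.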
